A study of Arabidopsis thaliana with 12 samples.

Results

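The genes described here are the nuclear genes for proteins of the plastid ribosome of *Arabidopsis thaliana* that had an array probe of their own. Of 41 listed loci, 6 were named alone by a probe, among 692 genes with a probe of their own and 3437 probes with values. They were chosen by locus and not by their values, although earlier results of these data were known by then. The small subunit was represented by *RPS10* (AT3G13120) and *RPS6* (AT1G64510), and the large subunit by *RPL17* (AT3G54210), *RPL34* (AT1G29070), *RPL5* (AT4G01310) and *RPL29* (AT5G65220). No probe was assigned to any of the other 35 listed loci alone, so these 6 are not a survey of the plastid ribosome.

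Total RNA was hybridised to 12 expression arrays, 6 labelled stn8 and 6 labelled WT, with the samples of each group numbered 1 to 6 in their titles. The stn8 mutant is named for STN8, a thylakoid kinase whose known targets include the core of photosystem II, and the submitters' description ties it to state transitions. The source field gives ecotype Columbia 0 and WT for all 12 samples, so the groups rest on the titles. The labels give no allele, tissue, age, light or growth conditions and do not say whether each number is a separate plant or culture, so p-values reflect the spread from array to array, which may be technical.

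Plastids translate their own genes on ribosomes of bacterial type. Some of the ribosomal proteins are encoded in the plastid genome, and most are encoded in the nucleus, made in the cytosol and imported. In green tissue these ribosomes make the core subunits of the photosystems and the large subunit of Rubisco, and the nuclear genes for their proteins are commonly expressed together with photosynthesis genes.

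The values were the authors' intensities on a linear scale whose reference is unknown. The median intensity of an array lay between 0.330 and 0.349 in stn8 and between 0.297 and 0.369 in WT. Between 220 and 254 probes were listed at exactly 0 on a stn8 array, against 173 to 190 on a WT array. Across 3079 probes above 0 on all arrays, log2 intensities correlated at 0.964 to 0.986 within stn8, 0.928 to 0.983 within WT and 0.690 to 0.734 between the groups, as a description across probes. WT arrays 5 and 6 were less like the other 4 WT arrays (0.928 to 0.943) than those 4 were like each other (0.971 to 0.983), and the fits, ranks, ratios and spreads of the genes that rest on them are also given without them. *STN8* itself had 0 probes in the annotation, so its transcript offers no check of the mutation. The labels give no tissue, and in RNA pooled over many cells, fewer cells of a type and less RNA per cell cannot be told apart.

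The comparison asked which transcripts differed in level between stn8 and WT. *RPL17*, *RPS10* and *RPL34* were higher in stn8, *RPL5* was slightly lower, *RPS6* did not pass the test, and *RPL29* was listed at 0 on every array. Of the 4 large-subunit genes 2 rose and 1 fell, and of the 2 small-subunit genes 1 rose. Calls are those of limma on quantile-normalized log2 intensities, at a Benjamini-Hochberg adjusted p under 0.05 over all 3437 probes. This rule called 70.4% of all probes, 34.7% higher and 35.8% lower in stn8. The 4 of 6 genes called here (66.7%) were therefore close to the share of all probes, and their number is not a result about the plastid ribosome.

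**Figure D1:**
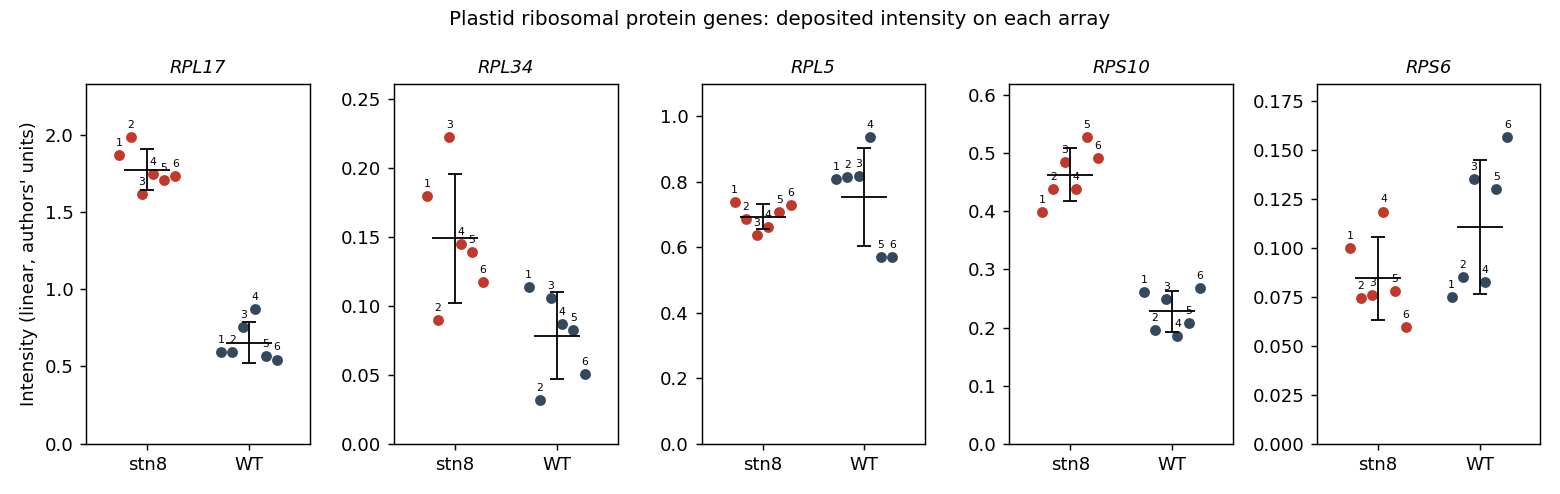
Deposited intensity (linear, the authors' units, vertical axes from 0 and different for each gene) of the 5 genes above 0, with stn8 arrays in red and WT arrays in dark blue; the number beside a point is the sample number, the horizontal bar is the mean and the error bar the SD over 6 arrays. All 6 stn8 points lie above all 6 WT points for *RPL17* and *RPS10*, while for *RPL5* the stn8 points lie between WT arrays 5 and 6 and WT arrays 1 to 4.

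*RPL17* encodes a protein that in bacteria sits in the large subunit beside the exit of the tunnel through which the new peptide leaves. Its intensity was 1.87, 1.98, 1.62, 1.75, 1.71 and 1.73 on stn8 arrays 1 to 6, against 0.590, 0.591, 0.757, 0.875, 0.565 and 0.545 on WT arrays 1 to 6. Every stn8 array was above every WT array, as was so, in one direction or the other, for 55.6% of all probes. WT arrays 3 and 4 were the highest of the WT arrays, and arrays 5 and 6 the lowest. The means were 1.77 ± 0.130 in stn8 and 0.654 ± 0.132 in WT (SD, n = 6 each). In the fit the log2 difference was 1.20 ± 0.10 (SE), with a 95% confidence interval from 0.98 to 1.43 and an adjusted p of 6.64e-07 (limma). Without WT arrays 5 and 6 the log2 difference was 1.13 (adjusted p = 1.24e-05). Across all 23 alternatives tried it stayed between 1.12 and 1.46 and was called each time, 32.0% of all probes having a larger difference in either direction. The largest limma adjusted p among them was 0.00179, with neighbouring arrays averaged (1 with 2, 3 with 4, 5 with 6) to 3 values per group.

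*RPS10* encodes a protein of the head of the small subunit, which in bacteria also takes part in the control of transcription termination. Its intensity was 0.399, 0.439, 0.485, 0.439, 0.528 and 0.491 on stn8 arrays 1 to 6, against 0.261, 0.196, 0.250, 0.185, 0.207 and 0.267 on WT arrays 1 to 6. The groups did not overlap, and WT arrays 5 and 6 did not stand apart from the other WT arrays for this gene. The means were 0.464 ± 0.0464 in stn8 and 0.228 ± 0.0359 in WT (SD, n = 6 each). The log2 difference was 1.01 ± 0.15 (SE, 95% confidence interval 0.69 to 1.34), with a limma adjusted p of 7.57e-05. It lay between 0.85 and 1.15 over the same 23 alternatives, the highest value being that without WT arrays 5 and 6 (adjusted p = 8.37e-05), with the call kept in each, and 39.1% of all probes had a larger difference in either direction. Here too the largest limma adjusted p, 0.00407, came with neighbouring arrays averaged.

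*RPL34*, which encodes a small basic protein of the large subunit, came from a dim probe. Its intensity was 0.180, 0.0898, 0.222, 0.145, 0.139 and 0.117 on stn8 arrays 1 to 6, against 0.113, 0.0313, 0.105, 0.0863, 0.0821 and 0.0506 on WT arrays 1 to 6. The groups overlapped: stn8 array 2 lay below WT arrays 1 and 3, and the other 5 stn8 arrays were above every WT array. Array 2 was the lowest of its group in both groups, and within each of the 6 same-numbered pairs the stn8 array was the higher one.

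In the fit the log2 difference of *RPL34* was 1.69 ± 0.46 (SE, 95% confidence interval 0.67 to 2.72, limma adjusted p = 0.00666), although the means, 0.149 ± 0.0467 in stn8 and 0.0782 ± 0.0316 in WT (SD, n = 6 each), differed only 1.90-fold. It was 0.995 without normalization between arrays, 0.94 with median centring and 0.89 with a pseudocount of 0.0584 added before the log2 step. The call was kept in these 3 fits, which called 70.2%, 71.6% and 71.4% of all probes. Without WT arrays 5 and 6 it was 1.87 (adjusted p = 0.0189). With neighbouring arrays (1 with 2, 3 with 4, 5 with 6) as a random block the call was lost (limma adjusted p = 0.111), which left 2 genes higher where 62.6% of all probes were called. The correlation within these blocks, fitted over all probes, was 0.585. With the same neighbouring arrays averaged, to 3 values per group, the call was kept (limma adjusted p = 0.00409), where 58.5% of all probes were called. The brightest probe within 4 spot numbers of *RPL34* was at 7.44 in stn8 and 8.13 in WT, and its part in the result was not tested.

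*RPL5* encodes a large-subunit protein that in bacteria binds the smaller ribosomal RNA of the large subunit, in the central protuberance. Its intensity was 0.737, 0.687, 0.637, 0.661, 0.707 and 0.728 on stn8 arrays 1 to 6, against 0.809, 0.814, 0.817, 0.936, 0.571 and 0.571 on WT arrays 1 to 6. All 6 stn8 values lay in the gap between WT arrays 1 to 4, which were higher, and WT arrays 5 and 6, which were lower. Such a placing, in either orientation, was counted after it had been seen and held for 37 probes, 1.08% of all. By sample number, stn8 was lower in pairs 1 to 4 and higher in pairs 5 and 6.

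The means of *RPL5* were 0.693 ± 0.0386 in stn8 and 0.753 ± 0.149 in WT (SD, n = 6 each), a difference smaller than the SD within WT. The fitted log2 difference was -0.30 ± 0.10 (SE, 95% confidence interval -0.53 to -0.07), and the limma adjusted p was 0.0251. Without WT arrays 5 and 6 it was -0.45 (adjusted p = 6.33e-05), in a fit that called 72.6% of all probes, and the deposited intensities of the 2 groups then did not overlap, as for 63.8% of all probes. The call was lost without normalization (-0.10, adjusted p = 0.518), with median centring (-0.15, adjusted p = 0.170) and with neighbouring arrays averaged (adjusted p = 0.157, with 58.5% of all probes called). It was also lost without WT array 1, 2 or 4 or stn8 array 3 or 4, where the limma adjusted p was 0.0522, 0.0527, 0.0504, 0.0524 and 0.0501, in that order. The sign was negative in every one of the 23 alternatives. The brightest probe within 4 spot numbers was at 3.54 in stn8 and 1.44 in WT, and its part in the result was not tested.

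*RPS6* encodes a protein that in bacteria lies on the platform of the small subunit. Its probe was dim, with intensities of 0.09997, 0.0742, 0.0761, 0.119, 0.0781 and 0.0593 on stn8 arrays 1 to 6. On WT arrays 1 to 6 they were 0.0747, 0.0853, 0.135, 0.0823, 0.130 and 0.156. The groups overlapped, with WT arrays 3, 5 and 6 above all stn8 arrays and stn8 arrays 2 and 6 below all WT arrays. The means were 0.0844 ± 0.0212 in stn8 and 0.111 ± 0.0341 in WT (SD, n = 6 each).

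The direction of *RPS6* was not settled by these data. The fitted log2 difference was 0.14 ± 0.29 (SE, 95% confidence interval -0.49 to 0.78, limma adjusted p = 0.687), whereas it was -0.37 without normalization, -0.42 with median centring and -0.031 without WT array 4. Without WT arrays 5 and 6 it was 0.54 (adjusted p = 0.0615). A p that misses the threshold does not show that the groups were alike.

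*RPL29*, which encodes a protein that in bacteria lies beside the peptide exit on the large subunit, was listed at 0 on all 6 stn8 arrays and all 6 WT arrays. So were 100 of the 3437 probes (2.91%). The labels do not explain the zeros, so no fold is given, and the value says only that this probe was listed at 0.

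**Figure D2:**
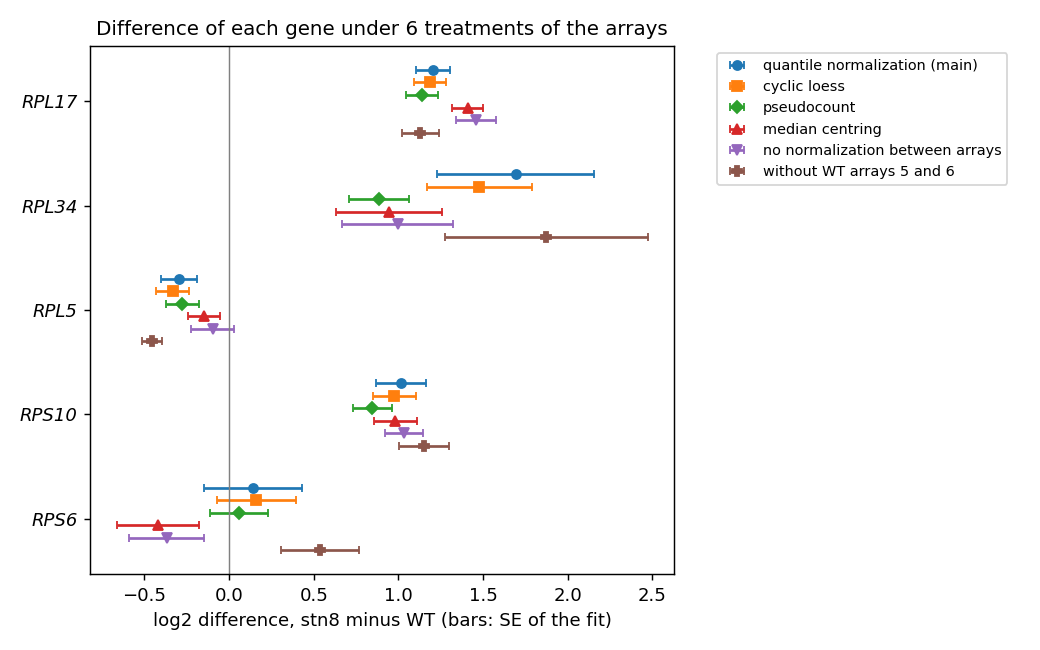
Log2 difference of stn8 minus WT (horizontal axis) for each of the 5 genes above 0, under 6 treatments of the arrays told apart by colour and marker; the bars are the SE of each fit. *RPL17* and *RPS10* stay near or above 0.85 throughout, *RPL34* shrinks from 1.69 to between 0.89 and 0.995 in 3 of them, and *RPS6* lies on both sides of 0.

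A probe's rank among all probes of its own array is not changed by a factor for the whole array or by quantile normalization. *RPL17* stood at percentile 88.7 to 90.9 on stn8 arrays and 71.3 to 81.0 on WT arrays. *RPS10* stood at 55.9 to 63.9 in stn8 and 23.1 to 45.3 in WT. *RPL34* stood at 17.0 to 34.7 in stn8 and 7.30 to 15.9 in WT, so that its ranks did not overlap although its intensities did. These ranks count the probes at 0, which stand below a dim probe and were more numerous on stn8 arrays. There were 239 on stn8 array 2, where *RPL34* stood lowest in stn8 (17.0). WT array 1, where it stood highest in WT (15.9), had 181. Ranks among probes above 0 were not taken, and the part of the zeros in this narrow gap was not tested. These 3 of the 5 genes above 0 did not overlap in rank, as was so for 59.4% of the 3079 probes above 0 on all arrays. *RPL5* overlapped, at 70.6 to 75.4 in stn8 and 72.3 to 82.5 in WT, and WT arrays 5 and 6, at 72.3 and 72.7, were inside the stn8 range. Without those arrays WT was at 79.6 to 82.5, above all stn8 arrays. *RPS6* overlapped as well, at 12.9 to 19.5 in stn8 and 9.75 to 25.8 in WT, so its stn8 values lay inside the WT range, and without WT arrays 5 and 6 the WT range was 9.75 to 16.2, still overlapping. For *RPL17*, *RPS10* and *RPL34* the ranks did not overlap without WT arrays 5 and 6 either. How many of all probes lacked overlap in rank without those arrays was not counted, so this is a description of these genes only.

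**Figure D3:**
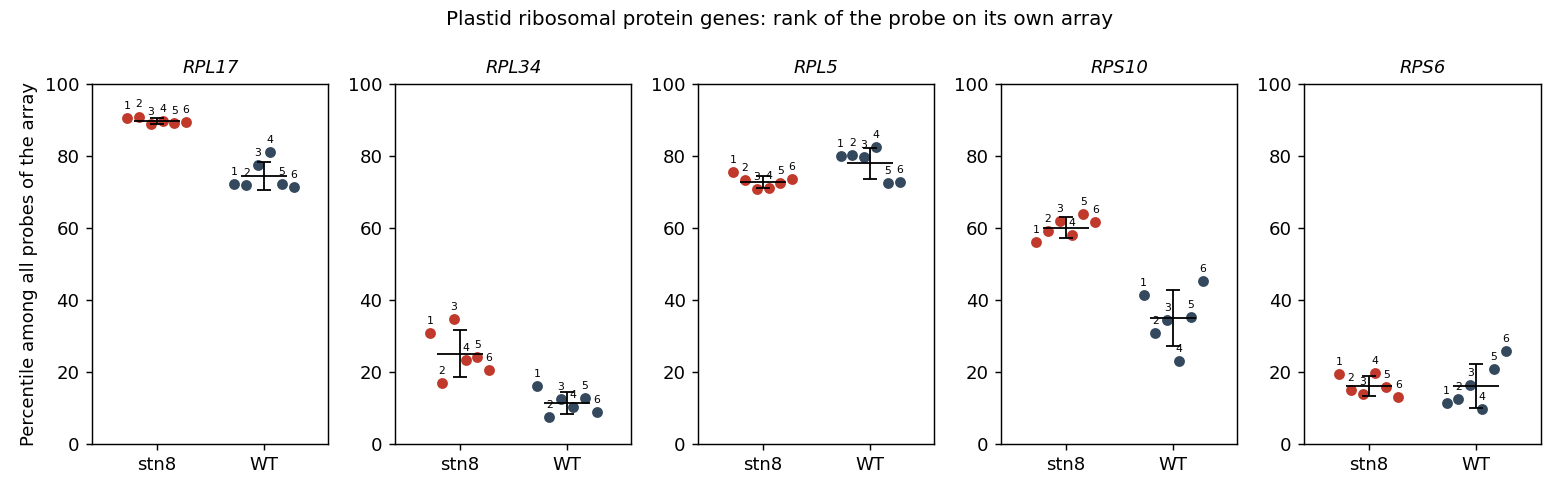
Percentile of each gene's probe among all 3437 probes of the same array (vertical axis, 0 to 100), with stn8 arrays in red and WT arrays in dark blue, sample numbers beside the points, and bars for the mean and SD over 6 arrays. The groups are apart for *RPL17*, *RPS10* and, narrowly, *RPL34* and overlap for *RPL5* and *RPS6*. Probes at 0, more numerous on stn8 arrays, are counted in the ranks.

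Whether the genes moved by unequal amounts was read from ratios between their deposited intensities on the same array. Multiplying a whole array by a factor cannot change these ratios, but quantile normalization, used for the calls, can. The level of such a ratio carries how each probe hybridises and is not a ratio of transcripts, so only its change between groups is of use. The log2 ratio of *RPL17* over *RPL5* was 1.36 ± 0.101 in stn8 (1.25 to 1.53) and -0.20 ± 0.202 in WT (-0.46 to -0.01; SD, n = 6 each), a change of 1.56 with no overlap. That of *RPS10* over *RPL5* was -0.58 ± 0.177 in stn8 and -1.71 ± 0.438 in WT (SD, n = 6 each), a change of 1.13, again with no overlap. The ratios of *RPL17* over *RPS6* and *RPS10* over *RPS6* did not overlap either, with changes of 1.83 and 1.40. Of all pairs of probes above 0 on all arrays 59.7% lacked overlap too, so this lack is not particular to these genes. Without WT arrays 5 and 6 the changes of these 4 ratios, in the order given, were 1.64, 1.35, 1.51 and 1.22, still with no overlap. How many of all pairs of probes lacked overlap without those arrays was not counted. *RPL34*, the third gene that rose, overlapped in its ratios over both *RPL5* (change 1.09, or 1.204 without WT arrays 5 and 6) and *RPS6* (change 1.36, or 1.08), and *RPS6* over *RPL5* overlapped too (change -0.27, or 0.13).

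In these ratios of deposited intensities the genes that rose were not set apart from each other. After quantile normalization the log2 difference was 1.69 for *RPL34*, 1.20 for *RPL17* and 1.01 for *RPS10*. Without normalization it was 0.995, 1.46 and 1.03 for the same genes, so their order depended on the scaling. The log2 ratio of *RPL17* over *RPS10* was 1.94 ± 0.227 in stn8 (1.69 to 2.23) and 1.51 ± 0.424 in WT (1.03 to 2.24), and the ratio on WT array 4 was above all those in stn8. That of *RPL34* over *RPS10* was -1.69 ± 0.485 in stn8 and -1.66 ± 0.682 in WT (SD, n = 6 each), a change of -0.04, and that of *RPL34* over *RPL17* changed by -0.46 with overlap. Without WT arrays 5 and 6 the changes of these 3 ratios, in the order given, were 0.29, -0.15 and -0.43, all with overlap. In all, 4 of the 10 pairs among the 5 genes above 0 did not overlap, against 59.7% of the 4738581 pairs of probes above 0 on all arrays. No test was made of these ratios.

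**Figure D4:**
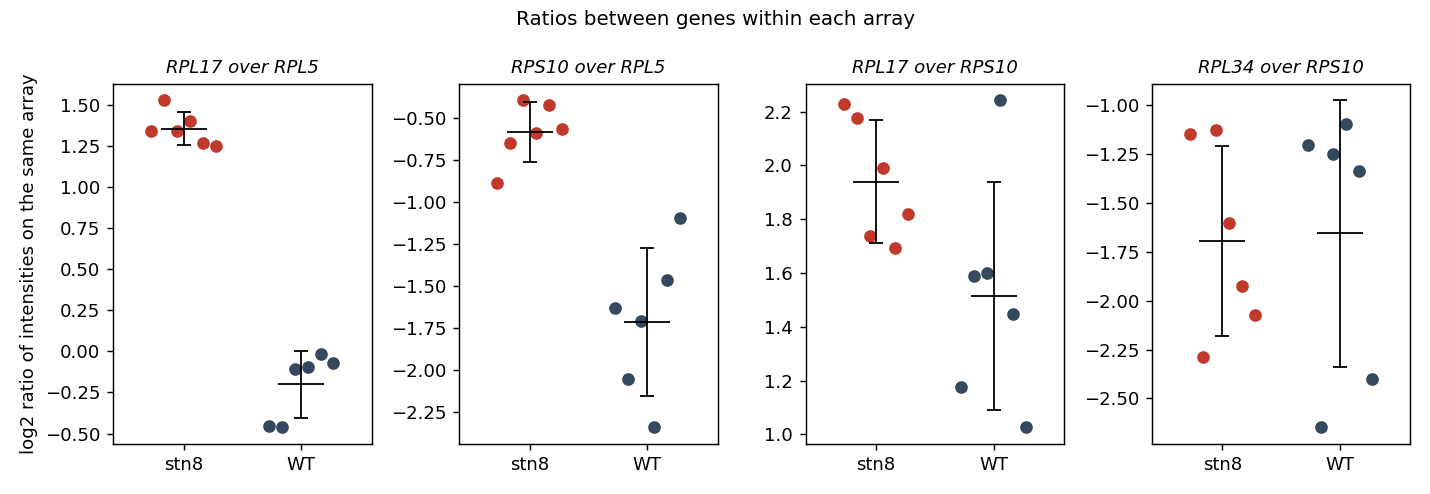
Log2 ratio of the intensities of 2 genes on the same array (vertical axes, different for each pair), with stn8 arrays in red, WT arrays in dark blue, ordered by sample number within a group, and bars for the mean and SD over 6 arrays. The ratios of *RPL17* and *RPS10* over *RPL5* are apart between the groups, with stn8 higher, and the plotted ratios of *RPL17* and *RPL34* over *RPS10* overlap.

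The spread between arrays was larger in WT for each of the 5 genes above 0. The coefficient of variation was 7.35% in stn8 and 20.2% in WT for *RPL17*, and 5.57% in stn8 and 19.7% in WT for *RPL5*. It was 10.003% in stn8 and 15.7% in WT for *RPS10*, 31.4% in stn8 and 40.5% in WT for *RPL34*, and 25.1% in stn8 and 30.8% in WT for *RPS6*. Its median over the 3079 probes with no 0 was 11.6% in stn8 and 16.3% in WT, and WT had the larger value for 69.2%. Within WT arrays 1 to 4 alone that median was 11.7%. On those 4 arrays the value was 7.26% for *RPL5*, 19.7% for *RPL17*, 17.1% for *RPS10*, 43.9% for *RPL34* and 29.1% for *RPS6*, so WT arrays 5 and 6 moved it by over 1.5 times for *RPL5* alone.

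The median absolute log2 difference was 1.01 over the 5 genes above 0 and 0.75 over the 3079 probes above 0 on all arrays. With *RPL29*, whose zeros force a difference of 0, it was 0.66 over the 6 genes and 0.78 over all probes. Of all probes, 18.9% had a larger difference than *RPL34*, 76.8% a larger one than *RPL5* and 86.6% a larger one than *RPS6*. These shares are those of the main fit, where the difference of *RPL34* was 1.69. It ranged from 0.89 to 1.95 over the 22 alternatives where *RPL34* was tested, and its share was not counted in those.

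**Figure D5:**
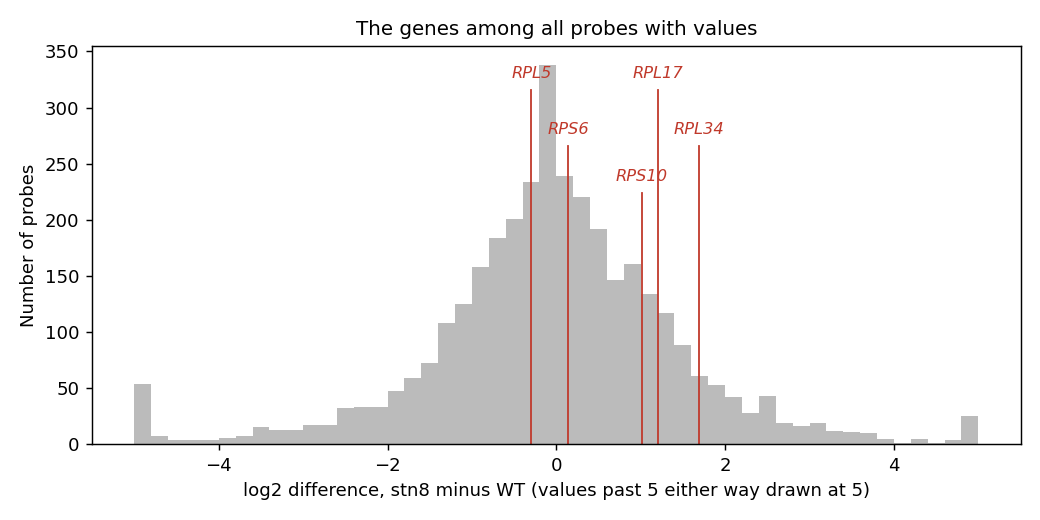
Number of probes (vertical axis) by log2 difference of stn8 minus WT after quantile normalization (horizontal axis, bins of equal width, values past 5 drawn at the ends), over all 3437 probes. Red lines mark the 5 genes above 0: *RPL5* at -0.30 and *RPS6* at 0.14 lie in the middle of the distribution, and *RPS10* at 1.01, *RPL17* at 1.20 and *RPL34* at 1.69 on its upper flank.

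Genes of most similar pattern were taken from 611 other genes with a probe of their own above 0 on all arrays, by the root mean square difference between centred log2 values over 12 arrays. Closest to *RPL17* were AT1G72640 (0.150), with an intensity of 1.4995 ± 0.0498 in stn8 and 0.632 ± 0.0962 in WT, and AT3G44050 (0.151), with 0.551 ± 0.00669 in stn8 and 0.232 ± 0.0445 in WT (SD, n = 6 each). Closest to *RPS10* were AT1G34270 (0.165) and AT1G22700 (0.169), with log2 differences of 1.15 and 1.04. Closest to *RPL5* were AT3G18870 (0.126) and *OSB1* (0.127), with log2 differences of -0.29 and -0.37. For the dim genes the nearest patterns were farther away: AT3G03890 (0.483) and *IQD22* (0.587) for *RPL34*, and AT2G45990 (0.307) and AT2G13690 (0.343) for *RPS6*. With 70.4% of probes called, many genes share a difference between the groups, and these names are a description only.

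The rest of plastid translation could not be followed on these arrays. Of 15 listed plastid translation factors, which start, extend and end the peptide chain, 0 had a probe of their own, and of 21 listed factors of plastid ribosome assembly 0 did. No other gene with a probe of its own carried the words ribosomal protein among its synonyms in the gene table, so cytosolic and mitochondrial ribosomal proteins were not compared. The 9 markers of seed and green tissue had 0 probes of their own, and tissue composition was not checked.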

How the data were processed

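The authors deposited 1 table of intensity values, linear by their range and never below 0, for 6 stn8 and 6 WT arrays. How background and scaling were handled is not given in the sources used here. In all, of 3439 rows, 2 were empty and dropped. GEO's platform annotation gave a single gene for 692 probes and more than one for 869, and left 1876 unlisted. The TAIR10.1 gene table matched 690 of those 692. No probe with several genes held a listed plastid ribosomal protein locus.

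Each 0 was replaced by the lowest positive value on the same array before taking log2. Because array medians then differed by 0.311 (limit 0.1), quantile normalization followed. The test was limma 3.58.1 (lmFit, eBayes, two-sided; R 4.3.3), adjusted by Benjamini-Hochberg over 3437 probes, threshold 0.05. Differences are stn8 minus WT, with 95% confidence intervals of the fit, whose precision the number of arrays limits. The fit was tested on simulated arrays with independent noise, no zeros and no normalization. That run does not cover correlated arrays, replaced zeros or the scaling used here. Plots used matplotlib 3.10.9 and Python 3.11.15.

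All 6 genes are named with their values; other genes were named by likeness of pattern (the 2 nearest to each gene above 0 on all arrays) or from lists of plastid translation and ribosome assembly. The 23 alternatives were other scalings (none, median centring, cyclic loess), a pseudocount, a filter on dim probes, array weights, a robust intensity trend, blocking by sample number, neighbouring arrays as a random block or averaged, and leaving out WT arrays 5 and 6 or each array in turn. The genes, lists and alternatives were chosen with earlier results of these data known. As a check of pairing, deviations from the group mean were correlated between stn8 and WT arrays: same-numbered arrays gave 0.170 to 0.333 in 6 pairs, all above the limit of 0.1, and differently numbered ones -0.284 to 0.286. Each of the 6 stn8 arrays correlated best with the WT array of its own number. The numbers come from the titles, which do not say what they mean. Neighbouring arrays taken as a random block had a fitted correlation of 0.585. The main fit treated all arrays as independent, so its SEs and p-values may be too small.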

Additional observations from a re-analysis of the deposited data

How the results depend on the processing

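Over 23 alternatives, *RPL17* and *RPS10* kept their direction and their calls. *RPL34* kept its direction in the 22 where it was tested and lost its call in 1, with neighbouring arrays as a random block. The number of genes called higher was 3, except 2 with that random block and 2 without the dimmest 33.3% of probes, a filter that removed *RPL34*, *RPS6* and *RPL29*. The number called lower, which is *RPL5* alone, was 1 in the main analysis and 0 without normalization, with median centring and with neighbouring arrays averaged; leaving out single arrays gave 0 to 1. The cause was not tested. *RPS6*, never called, changed sign without normalization (-0.37), with median centring (-0.42) and on leaving out WT array 4 (leaving out single arrays gave -0.031 to 0.33). With the sample number as a replicate block, 2477 probes were called against 2421, again 3 of these genes higher and 1 lower, and the block changed no call among them. The number of probes called was 2342 to 2421 when single arrays were left out and 1841 to 2505 under the other alternatives. *RPL34* and *RPS6* were the dimmest of the 5 probes above 0 and varied most between arrays; no background values were used here, so signal over background was not measured.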

Other observations

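Of the neighbours within 4 spot numbers of *RPL17*, the one brightest in stn8 was at 0.792 in stn8 and 0.459 in WT, and the one brightest in WT at 0.591 in stn8 and 1.24 in WT. For *RPS10* the neighbour brightest in stn8 was at 0.683 in stn8 and 0.346 in WT, and the one brightest in WT at 0.268 in stn8 and 0.577 in WT. For *RPS6* these were at 0.758 in stn8 and 0.800 in WT, and at 0.615 in stn8 and 1.68 in WT. For *RPL29* 1 neighbour was brightest in both groups, at 0.807 in stn8 and 2.11 in WT. The sources used here do not say whether spot numbers follow the layout of the array.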
